A study of Mus musculus with 18 samples.

Results

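Usp2, Tspan4, Lonrf3, Dtx4, Coq10b and Nampt are transcripts that cycle over the day in many mouse tissues, and they were followed here in the distal colon. The 6 genes were chosen by their known cycling and with their log2 signals in these same 18 arrays already seen, so their time courses are given as a description and not as a test of rhythm. They make up 6 of the 18193 genes that the platform annotation names with 1 symbol, and all 12 probe sets carrying 1 of the 6 symbols were used. Colon tissue from just above the anus was taken from mice at 6 times of day, with 3 Affymetrix mouse expression arrays per time, labelled a to c. All mice ate freely and had been housed for 2 weeks in days of 12 h light, from clock hour 7 to 19, followed by 12 h darkness. The groups were 8am, 12pm, 4pm, 8pm, 12am and 4am, which fell 1, 5, 9, 13, 17 and 21 h after lights on. Strain, age and sex are not given in the sources used here, and the labels leave unsaid whether arrays of 1 time stand for single mice or pooled ones, so errors and p-values cover only how these samples vary, which may be technical. Signals are on the authors' linear scale, log2 values are log2(signal + 16), means carry the SD of 3 arrays, and fitted amplitudes, peaks and differences carry their SE.

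The circadian clock of a cell is a feedback loop in which CLOCK and BMAL1 switch on genes through a DNA element called the E-box, among them their own repressors of the Period and Cryptochrome families. Clock outputs are genes outside the loop whose transcripts follow it, either through E-boxes or through the D-box, the element bound by the clock-driven factors Dbp, Tef and Hlf. In the gut of mice the clock is known to time cell division, transport and motility. Usp2 removes ubiquitin from proteins and acts on components of the mouse clock. Tspan4 is a tetraspanin, a membrane protein that organises other membrane proteins. Lonrf3 carries a RING finger, the hallmark of many ubiquitin ligases, and a LON domain. Dtx4 is a ubiquitin ligase of the Deltex family, which takes part in Notch signalling. Coq10b binds coenzyme Q in mitochondria and is needed for normal respiration, and Nampt makes the rate-limiting enzyme of NAD salvage from nicotinamide.

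Promoter sequences from RefSeq (build GRCm38.p6) covered 5 of the 6 genes with 6 windows, each running from 250 bases before a transcript start to 50 after it. The letters of the E-box, CACGTG, were present in windows of 3 of these 5 genes, Tspan4, Lonrf3 and Coq10b. They occur in windows of 8.09% of all 27025 genes with a window, and in 7.15% of all 32851 windows. The 250 bases before the start are shown for these 3 and for Usp2, in whose window none of the letters searched was present, so that the genes can be compared. Capitals mark the motifs found, and position -1 is the last base before the start. All 4 stretches are on the plus strand: chr9:44084670-44084919 for Usp2, chr7:141476130-141476379 for the second of 2 Tspan4 starts, chrX:36328159-36328408 for Lonrf3 and chr1:55052520-55052769 for Coq10b. The starts used for Usp2, Tspan4 and Lonrf3 lie inside the annotated gene, and that of Coq10b is at its beginning. The E-box letters of Tspan4 and Lonrf3 therefore also lie inside the annotated gene.
Usp2: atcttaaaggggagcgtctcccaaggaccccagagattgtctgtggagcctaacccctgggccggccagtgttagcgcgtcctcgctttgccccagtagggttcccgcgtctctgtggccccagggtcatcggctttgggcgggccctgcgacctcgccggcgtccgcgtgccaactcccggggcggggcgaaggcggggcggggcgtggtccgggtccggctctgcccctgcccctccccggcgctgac
Tspan4: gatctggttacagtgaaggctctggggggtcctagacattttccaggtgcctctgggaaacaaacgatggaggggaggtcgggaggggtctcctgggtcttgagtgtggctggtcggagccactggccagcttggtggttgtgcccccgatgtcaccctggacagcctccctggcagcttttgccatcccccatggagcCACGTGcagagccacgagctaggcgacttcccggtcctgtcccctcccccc
Lonrf3: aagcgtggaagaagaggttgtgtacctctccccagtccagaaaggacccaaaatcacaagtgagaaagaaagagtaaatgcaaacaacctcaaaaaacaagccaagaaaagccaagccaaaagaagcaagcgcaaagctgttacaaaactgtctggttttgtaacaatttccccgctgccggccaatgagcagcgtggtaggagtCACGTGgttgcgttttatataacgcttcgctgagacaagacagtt
Coq10b: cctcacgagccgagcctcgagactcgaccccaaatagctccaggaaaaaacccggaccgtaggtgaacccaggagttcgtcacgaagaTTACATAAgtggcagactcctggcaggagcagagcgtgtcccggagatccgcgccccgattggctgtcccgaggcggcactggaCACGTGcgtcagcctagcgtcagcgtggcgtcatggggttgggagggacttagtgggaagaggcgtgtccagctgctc

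The E-box letters began at position -51 in Tspan4, -45 in Lonrf3 and -78 in Coq10b. Coq10b also held the D-box letters TTATGTAA on the minus strand at position -162, which occur in 0.938% of all windows. In Nampt (chr12:32820085-32820334) the only match was AGGTCA, the core letters bound by Rev-erb and Ror nuclear receptors, at position -151 on the plus strand. These letters occur in 16.3% of all windows. The first Tspan4 start had no match. All motifs were searched on both strands. The E-box variant CACGTT occurs in 4.68% of all windows, the D-box form TTACGTAA in 0.119% and the cAMP response element TGACGTCA in 1.79%. The receptor motif with a T before it, TAGGTCA, occurs in 2.61% and overlaps the shorter one. None of these 4 was found in the 6 windows. A match is a run of letters and not a shown binding site, and the absence of one speaks only of these windows.

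On the annotation of GRCm38.p6 the genes lie at chr9:44067021-44095627 (Usp2), chr7:141475236-141493427 (Tspan4), chrX:36328358-36366857 (Lonrf3), chr19:12466329-12502179 (Dtx4), chr1:55052770-55072702 (Coq10b) and chr12:32820335-32853369 (Nampt). All 6 are protein coding.

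Some arrays stood apart in RNA quality, which bears on the late light and late dark values. Control probe sets at both ends of Gapdh give a 3′/5′ ratio that is high when RNA is degraded, and it lay between 0.746 and 1.12 in 14 arrays. The ratios of the other arrays were 36.0 (4am a), 34.3 (4pm b), 18.2 (4am b) and 2.33 (4pm c). Median signals ranged from 127 in 4am a to 251 in 12am c, and no columns were identical. Tissue identity was checked with 10 colon epithelium markers, of which 9 were on the array and above the filter, Cdx2 being the weakest with a mean signal of 1751. All 6 smooth muscle markers were also above the filter, and 5 of 7 exocrine pancreas markers, a cell type foreign to colon, were measured. Of these, Sycn and Cela1 had mean log2 signals of 14.01 and 13.37, while Ctrb1, Cela2a and Cpa1 had 8.36, 8.27 and 7.85. The log2 SD within times was 0.32 for Sycn and 0.36 for Cela1, against 2.54, 2.21 and 2.69 for Ctrb1, Cela2a and Cpa1. The summed signals of the pancreas markers had a median of 30051.5 over all arrays and reached 62290 in 4pm b and 112230 in 12am b. In such tissue, fewer cells of a type and less RNA per cell cannot be told apart.

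Usp2 was lowest at noon and highest at 8pm, 1 h after lights off. Probe set 1417169_at had signals, for arrays a, b and c in turn, of 697, 584 and 649 (8am), 560, 481 and 393 (12pm), and 631, 1259 and 1304 (4pm). It then had 1603, 1693 and 1215 (8pm), 958, 709 and 750 (12am) and 985, 819 and 509 (4am). The 3 arrays at 8pm lay above all arrays of 8am, 12pm, 12am and 4am, but 4pm b and 4pm c reached into their range. The mean log2 signal was 10.56 ± 0.25 at 8pm and 8.93 ± 0.25 at 12pm (SD, n = 3 each), the highest and the lowest of the 6 times. From high to low the order was 8pm, 4pm, 12am, 4am, 8am and 12pm, and of the neighbours in this order 8am and 12pm alone did not overlap. A 24 h cosine fitted to the 18 arrays had an amplitude of 0.60 ± 0.14 on the log2 scale (SE, n = 18), a swing of 2.30-fold, with its crest 13.6 ± 0.92 h after lights on.

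The second Usp2 probe set, 1417168_a_at, gave nearly the same curve, with an amplitude of 0.69 ± 0.11, a swing of 2.62-fold and its crest at 13.5 ± 0.63 h. Its arrays had 384, 407 and 546 (8am), 612, 406 and 481 (12pm), 824, 1295 and 1003 (4pm), 1274, 1280 and 1013 (8pm), 991, 915 and 775 (12am), and 577, 1032 and 602 (4am). Its highest time was again 8pm and its lowest was 8am, and all neighbouring times in its order overlapped. Over the 18 arrays the 2 probe sets correlated with r = 0.80, and they share RNA and array. Leaving out 4pm b, 4am a and 4am b, whose Gapdh ratios exceeded those of all others, gave amplitudes of 0.63 and 0.71.

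Between its highest and lowest times, 8 of 9 colon epithelium markers also had a higher mean at 8pm than at 12pm, with summed signals of 111973 to 134397 at 8pm and 84143 to 99162 at 12pm, which did not overlap. At 8am, where Usp2 was low, the sums of the colon epithelium markers were 112501 to 129030. They were 79877 to 91517 at 4pm, where Usp2 was second highest. Its 4pm signals were 631 in 4pm a, and 1259 and 1304 in 4pm b and 4pm c, whose Gapdh ratios were 34.3 and 2.33. The 5 squamous epithelium markers were all lower, with sums of 680 to 768 at 8pm and 774 to 1037 at 12pm. Of the squamous markers 3 were above the filter, and Trp63 was the weakest with a mean signal of 97.6. No marker of either list was at 0. Their part in the Usp2 difference was not tested.

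**Figure D1:**
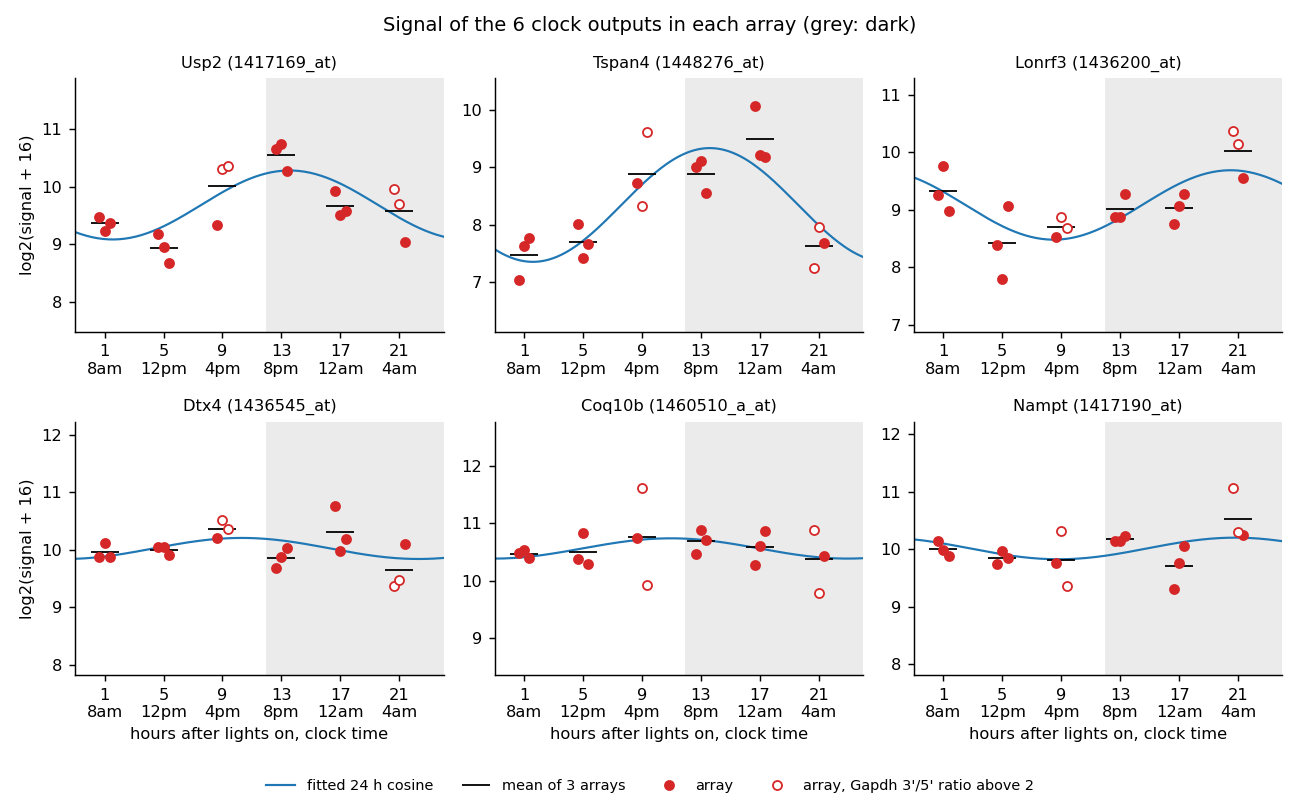
Log2 signal (y axis) of the probe set with the highest mean for each gene against hours after lights on (x axis), 3 arrays per time, with the time mean as a bar, the fitted 24 h cosine as a line and the dark shaded. Open circles are the 4 arrays with a Gapdh ratio above 2. Tspan4 spans 2.01 log2 units between its 12am and 8am means, while Coq10b spans 0.39 between 4pm and 4am with arrays that overlap at all times.

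Tspan4 had the widest swing of the 6 genes and was high from late light to midnight. Its single probe set, 1448276_at, had signals of 115, 182 and 203 (8am), 241, 156 and 187 (12pm), and 407, 304 and 765 (4pm). The later times gave 496, 540 and 361 (8pm), 1059, 579 and 563 (12am) and 137, 233 and 190 (4am). The 9 arrays from 4pm to 12am lay above all 9 arrays of the other times, 304 being the lowest signal in those 3 times and 241 the highest in the rest. The mean log2 signal was 9.49 ± 0.50 at 12am and 7.48 ± 0.39 at 8am. In the order 12am, 8pm, 4pm, 12pm, 4am and 8am, 12am did not overlap with 8pm, nor 4pm with 12pm, while the other neighbours overlapped. The arrays of 4am lay below all those of 12am, with a log2 mean of 7.63 ± 0.35 at 4am.

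The cosine fit gave Tspan4 a log2 amplitude of 0.99 ± 0.17, a swing of 3.94-fold, peaking at 13.6 ± 0.65 h, the same hour as for Usp2. Only 0.148% of the 12870 genes fitted had a larger amplitude, and the median over all of them was 0.19. With 4pm b, 4am a and 4am b left out the amplitude was 0.96 and the peak 13.9 h, and leaving out any single array gave between 0.90 (without 12am a) and 1.09 (without 8pm c). All 5 squamous epithelium markers on the array were higher at 12am, with sums of 962 to 1389 at 12am and 552 to 663 at 8am. Colon epithelium sums were lower, at 96763 to 110055 at 12am and 112501 to 129030 at 8am, with 1 of 9 markers higher. The 5 pancreas markers were also all higher at 12am, with overlapping sums of 25853 to 112230 at 12am and 18117 to 30580 at 8am. So were 3 of 3 adipocyte markers, with overlapping sums of 1328 to 1657 at 12am and 771 to 1560 at 8am, and 5 of 6 B and plasma cell markers, with overlapping sums of 5483 to 11844 at 12am and 4062 to 14846 at 8am. Above the filter were 3 of the 5 squamous and 2 of the 3 adipocyte markers, the weakest being Trp63 and Lep with mean signals of 97.6 and 19.8. No marker of these 5 lists was at 0, and their part in the Tspan4 difference was not tested.

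Lonrf3 ran later, with its high point late in the dark. Probe set 1436200_at had signals of 597, 853 and 488 (8am), 321, 208 and 519 (12pm) and 355, 452 and 397 (4pm). In the dark it had 454, 452 and 604 (8pm), 415, 521 and 603 (12am), and 1304, 1123 and 737 (4am). The 4am arrays lay above all arrays of the 4 times from 12pm to 12am, but 8am b, at 853, exceeded 4am c. The mean log2 signal was 10.03 ± 0.42 at 4am and 8.42 ± 0.63 at 12pm. From high to low its times ran 4am, 8am, 12am, 8pm, 4pm and 12pm, and of these neighbours 8pm and 4pm alone did not overlap. The amplitude was 0.60 ± 0.15, a swing of 2.31-fold, and the peak fell at 20.5 ± 0.94 h.

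The other Lonrf3 probe set, 1429863_at, peaked at 20.5 ± 0.89 h as well, with an amplitude of 0.47 ± 0.11. It had 376, 474 and 362 (8am), 272, 265 and 205 (12pm), 180, 215 and 222 (4pm), 325, 316 and 441 (8pm), 374, 316 and 283 (12am) and 570, 424 and 435 (4am). Its lowest time was 4pm, and both probe sets correlated with r = 0.71 over the 18 arrays. In both, 4am a was the highest of all 18 arrays, and it is also the array with the highest Gapdh ratio. Without 4pm b, 4am a and 4am b, which leaves 1 array at 4am, the amplitudes were 0.46 ± 0.16 and 0.42 ± 0.14, with peaks at 20.3 and 20.5 h. Between its highest and lowest times, 6 of 6 B and plasma cell markers were also higher at 4am, with sums of 10407 to 17333 at 4am and 6376 to 9227 at 12pm, and none was at 0. Their sums had medians of 4169 at 8am, where Lonrf3 (1436200_at) was second highest, and 12406 at 4pm, where it was second lowest. The sums ranged from 4062 to 14846 at 8am and from 6760 to 12620 at 4pm, so they overlapped. At 4am 4 of 9 colon epithelium, 1 of 6 smooth muscle and 1 of 5 squamous epithelium markers were higher than at 12pm. So were 1 of 5 pancreas and 1 of 3 adipocyte markers, and the sums of each of these lists overlapped between 4am and 12pm. The part of all these markers in the 4am difference was not tested.

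Dtx4, Coq10b and Nampt had small amplitudes in the colon, near the median of all genes. Dtx4 (1436545_at) had 924, 1089 and 922 (8am), 1037, 1040 and 948 (12pm), 1160, 1452 and 1295 (4pm), 802, 919 and 1033 (8pm), 1723, 989 and 1145 (12am), and 645, 690 and 1074 (4am). Its 3 arrays at 4am lay below the 3 at 4pm, with log2 means of 9.64 ± 0.39 at 4am and 10.36 ± 0.16 at 4pm, and 12am a was the highest single array. All neighbouring times in its order of levels overlapped. The amplitude was 0.18 ± 0.12 with a peak at 10.3 ± 2.45 h. It was 0.07 with 4pm b, 4am a and 4am b left out, of which 4am a and 4am b were the lowest Dtx4 arrays. The second probe set, 1455711_at, ranged from 233 in 8am a to 615 in 12am c with an amplitude of 0.11 ± 0.12, and correlated with the other at r = 0.19.

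Coq10b (1460510_a_at) had 1409, 1470 and 1337 (8am), 1321, 1811 and 1241 (12pm), 1695, 3130 and 957 (4pm), 1400, 1885 and 1670 (8pm), 1231, 1540 and 1844 (12am), and 1874, 872 and 1372 (4am). The arrays of all 15 pairs of times overlapped, and 4pm b, with a Gapdh ratio of 34.3, was the highest array. The amplitude was 0.18 ± 0.14. The second probe set, 1428487_s_at, of a type that may match transcripts of more than 1 gene, correlated with it at r = 0.21 and had another shape. Its log2 means were 9.81 ± 0.29, 9.56 ± 0.18, 10.08 ± 0.34, 10.48 ± 0.37, 9.61 ± 0.28 and 10.46 ± 0.60 from 8am to 4am. These have high points at 8pm and 4am, and a 12 h wave fitted beside the 24 h one had an amplitude of 0.42, against 0.21 for the 24 h wave. Over all genes the median amplitude was 0.34 for the 12 h wave and 0.19 for the 24 h one. The arrays with a Gapdh ratio above 2 were all at 4pm or 4am, 12 h apart, and their part in the 12 h waves was not tested.

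Nampt (1417190_at) had 1107, 996 and 926 (8am), 836, 988 and 902 (12pm), 845, 1260 and 641 (4pm), 1118, 1114 and 1184 (8pm), 619, 850 and 1048 (12am), and 2111, 1240 and 1192 (4am). The 4am arrays lay above all arrays of 8am, 12pm, 8pm and 12am, while 4pm b, at 1260, reached into their range. The 8pm arrays lay above those of 8am, 12pm and 12am, and all later neighbours in the order of levels overlapped. The cosine amplitude was 0.19 ± 0.13 with a peak at 20.8 ± 2.68 h, and it was 0.07 without 4am a, the highest array. Probe set 1455320_at also had its highest mean at 4am, 10.22 ± 0.51, an amplitude of 0.24 ± 0.12 and its peak at 17.7 ± 1.93 h. It correlated with the first at r = 0.61, and at r = 0.18 with 4pm b, 4am a and 4am b left out. A further Nampt probe set, 1448607_at, had a mean log2 signal of 6.83, below the filter of 7.10, and ranged from 18 in 12am a to 215 in 4am c.

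**Figure D2:**
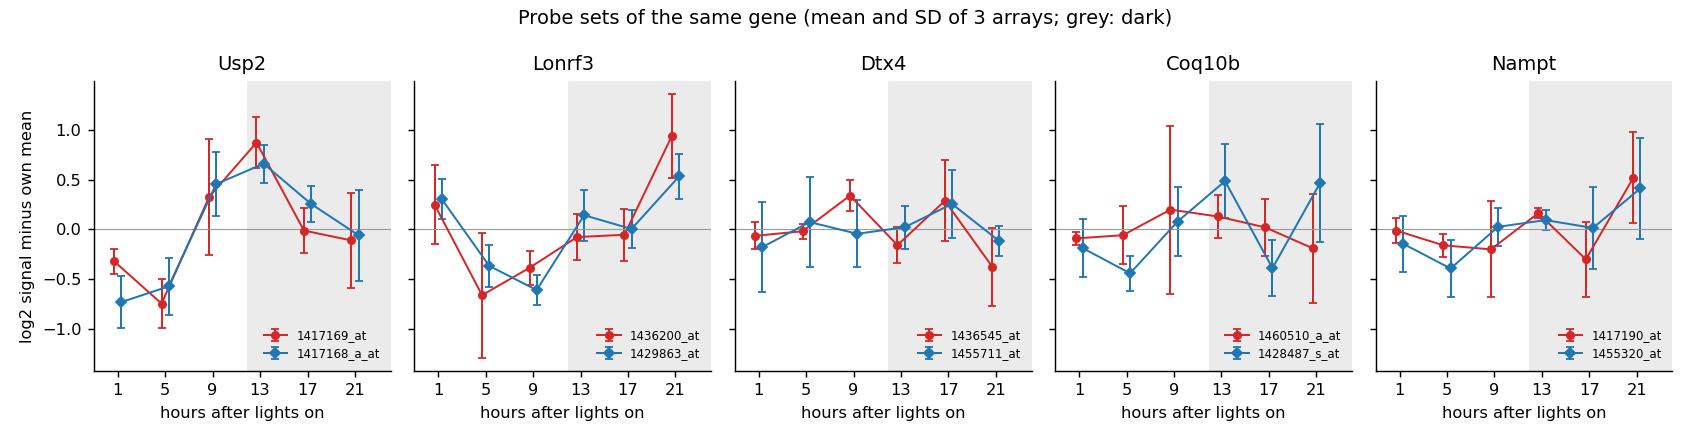
Log2 signal minus the probe set's own mean over 18 arrays (y axis) against hours after lights on (x axis) for the 5 genes with 2 probe sets above the filter, as mean and SD of 3 arrays, dark shaded. The pairs run together for Usp2 (r = 0.80) and Lonrf3 (r = 0.71) and apart for Dtx4 (r = 0.19) and Coq10b (r = 0.21).

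Beside other clock genes, the fitted cosines of Usp2 and Tspan4 peaked early in the dark, at 13.6 h, and that of Lonrf3 late. The highest measured mean was at 8pm for Usp2 and at 12am for Tspan4, whose 12am arrays lay above all its 8pm arrays. All peak hours given here are fitted ones. Dbp peaked at 10.8 ± 0.33 h with an amplitude of 2.16 ± 0.19, Tef at 11.5 ± 0.55 h with 1.18 ± 0.17, and Hlf, the other D-box factor, at 13.8 ± 0.84 h with 0.48 ± 0.11. Lonrf3, at 20.5 h, came after Cry1, a repressor of the loop, which peaked at 19.3 ± 0.60 h with 1.05 ± 0.16, and before Arntl, which encodes BMAL1, at 23.1 ± 0.63 h with 0.72 ± 0.12. Differences in peak hour between genes were not tested.

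**Figure D3:**
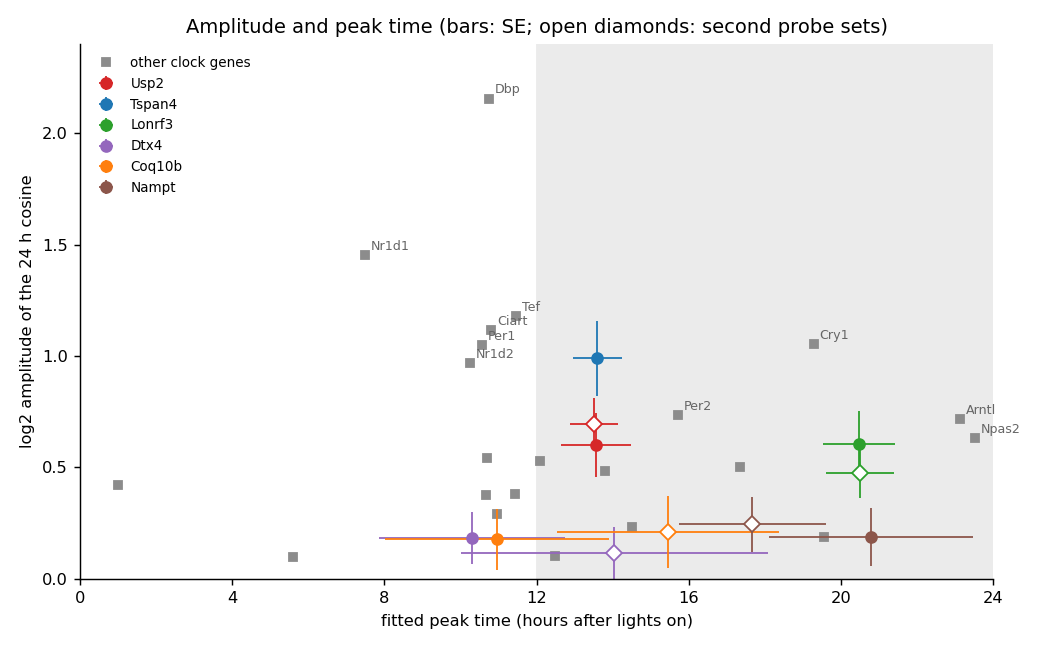
Log2 amplitude of the 24 h cosine (y axis) against its fitted peak in hours after lights on (x axis), with SE bars, for the 11 probe sets of the 6 genes above the filter and, as grey squares, the other clock genes tested. Filled circles are the probe sets with the highest mean and open diamonds the second ones. Tspan4 stands at 0.99 and 13.6 h, Lonrf3 at 0.60 and 20.5 h, and the wide bars of Dtx4, Coq10b and Nampt go with amplitudes under 0.25.

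Times separated by 12 h were set against each other because earlier results of these data had shown their arrays to resemble each other. That resemblance is not shown here, and such a difference leaves out only what both times share. At 8pm against 8am, 1 h after lights off against 1 h after lights on, Usp2 was higher by 1.19 ± 0.29 (log2 difference, SE) and Tspan4 by 1.41 ± 0.34, and both had 3 of 3 arrays at 8pm above all at 8am. At 12am against 12pm the differences were 0.74 ± 0.29 for Usp2 and 1.79 ± 0.34 for Tspan4, again with no overlap. At 4am against 4pm Tspan4 was lower (-1.25 ± 0.34) with no overlap, and Usp2 had a difference of -0.44 ± 0.29 with arrays that overlapped. Lonrf3 was higher at 4am than at 4pm by 1.33 ± 0.30 with no overlap, and had 0.61 ± 0.30 at 12am against 12pm and -0.33 ± 0.30 at 8pm against 8am, both with overlap. Dtx4 was lower at 4am than at 4pm (-0.72 ± 0.23), and Nampt had 0.72 ± 0.27 for the same pair with overlapping arrays. For Coq10b the 3 differences lay between -0.39 and 0.22, each with an SE of 0.34. The 4am and 4pm times held all 4 arrays with a Gapdh ratio above 2. Their other arrays were 4am c and 4pm a. Signals in these, in turn, were 1074 and 1160 for Dtx4, 1192 and 845 for Nampt, and 737 and 355 for Lonrf3. For Tspan4 they were 190 and 407, for Usp2 509 and 631, and for Coq10b 1372 and 1695. The part of RNA quality in the differences between 4am and 4pm was not tested.

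**Figure D4:**
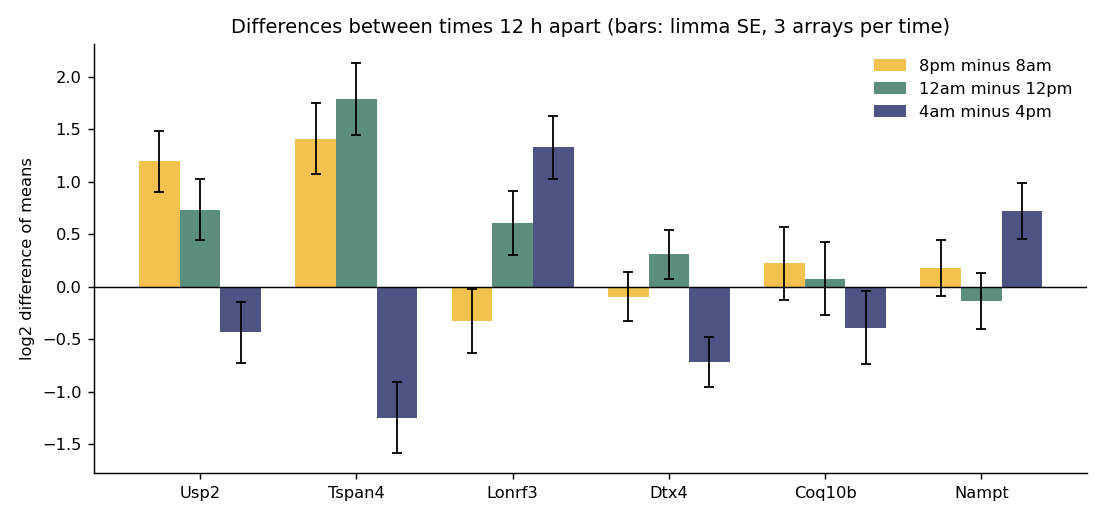
Log2 difference of the means of times 12 h apart (y axis, later minus earlier time, bars from 0, error bars limma SE with 3 arrays per time) for each gene (x axis). Tspan4 is higher at 8pm and 12am and lower at 4am, and the tallest Lonrf3 bar is that of 4am against 4pm, at 1.33. The 4am and 4pm times hold all 4 arrays with a Gapdh ratio above 2.

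Counts over all genes put these values in context, and nothing is read from them for the 6 genes, which were chosen on the same arrays. With limma and Benjamini-Hochberg adjustment over 12870 genes, 0 of the 6 passed a threshold of 0.05 in the cosine fit and 3 had an unadjusted p under 0.05, where 0.0389% of all genes passed and 509 had an unadjusted p under 0.05. Any difference between the 6 times was called for Usp2, Tspan4 and Lonrf3, 3 of 6, against 17% of all genes. The 3 differences between times 12 h apart, tested jointly, called Tspan4, 1 of 6, against 0.0777% of all genes (adjusted p = 0.0187, and 0.0598 with the replicate letters as a block). In this joint test Tspan4 missed the threshold without 8am a (0.0565), 12pm b (0.0684), 12pm c (0.0700), 4pm a (0.0624), 8pm a (0.0717) or 8pm b (0.0768). Usp2 lost its call for any difference without 8pm a (adjusted p = 0.0519) or 8pm b (0.0513), and Lonrf3 without 4am a (0.0554), 4am b (0.0525) or these and 4pm b together (0.0897). Dtx4 gained the call for any difference without 4am c (0.0174). The 4am arrays were then 4am a and 4am b, with Gapdh ratios of 36.0 and 18.2. The highest time did not overlap the lowest in 5 of the 6 genes and in 67.3% of all genes, and 35 of their 90 pairs of times did not overlap, against 26.9% over all genes and pairs. Tspan4 had no overlap in all 3 pairs 12 h apart, 1 of 6 genes against 0.241% of all genes. The median amplitude of the 6 was 0.39, against 0.19 over all genes.

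The genes most alike over the 18 arrays differed between the members. Those with the highest Pearson r with Usp2 were the clock-driven factor Hlf (r = 0.87), the guanine deaminase Gda (0.82) and Slc9a3r1 (0.82), a scaffold of transporters at the cell surface. For Tspan4 they were the adhesion protein Vsig1 (0.83), Pdxk (0.82), which activates vitamin B6, and Gm2a (0.82), a helper of ganglioside breakdown in lysosomes. For Lonrf3 they were Yaf2 (0.85), a part of Polycomb complexes, the cholesterol exporter Abca1 (0.84) and the autophagy protease Atg4c (0.83). With 4pm b, 4am a and 4am b left out, r with Abca1 was 0.70 and with Atg4c 0.68, whereas the 6 partners of Usp2 and Tspan4 stood between 0.84 and 0.90.

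Dtx4 was most like the splicing kinase Srpk1 (0.86), the peptidase Npepl1 (0.85) and the lysosomal protease Lgmn (0.85). With 4pm b, 4am a and 4am b left out, these r were 0.70, 0.84 and 0.71. Coq10b was most like Emc4 (0.83), a part of a membrane protein insertion complex, the translation release factor Etf1 (0.82) and Sertad2 (0.81). With the same arrays left out, r was 0.68, 0.58 and 0.50. Nampt was most like the replication protein subunit Rpa3, Echdc1 and the mitochondrial protein Fundc1, with r of 0.93, 0.93 and 0.92, and of 0.83, 0.86 and 0.86 without these arrays. These genes are the top 3 of all tested for each member, so their r has no test. Among the 15 pairs of the 6 themselves, r was 0.63 for Lonrf3 with Nampt, 0.55 for Usp2 with Tspan4 and 0.53 for Tspan4 with Dtx4. It was -0.67 for Dtx4 with Nampt, -0.57 for Tspan4 with Nampt and -0.52 for Lonrf3 with Dtx4, and the other 9 pairs lay between -0.30 and 0.42. With the 3 arrays left out, these 6 values were 0.40, 0.66, 0.52, -0.72, -0.52 and -0.12, and r for Coq10b with Nampt was 0.61, against 0.42 over all arrays.

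Relatives and pathway partners of the 6 genes had median amplitudes between 0.17 and 0.22 per list, against 0.19 over all genes, and 0 genes of these 6 lists passed in the limma cosine fit or in the joint test of times 12 h apart. In the joint test an unadjusted p under 0.05 was met by 5 ubiquitin-specific proteases, 3 tetraspanins, 1 LON domain relative, 2 Deltex and Notch genes, 1 gene of coenzyme Q synthesis and 2 of NAD metabolism, where 1410 of all 12870 genes met it. Any difference between times was called for 5 of 41, 5 of 24, 1 of 4, 6 of 19, 0 of 11 and 2 of 14 genes in the same order, against 17% of all genes, and 1 gene of coenzyme Q synthesis had an unadjusted p under 0.05 there. In the limma cosine fit 509 of all 12870 genes had an unadjusted p under 0.05. Of 41 other ubiquitin-specific proteases tested, 0 had an unadjusted p under 0.05 in the cosine fit, and the lowest p belonged to Usp49 (amplitude 0.23 ± 0.11) and Usp15 (0.46 ± 0.21). Of 24 other tetraspanins 2 had an unadjusted p under 0.05, Tspan5 (0.27 ± 0.08, peak at 12.6 h) and Tspan14 (0.28 ± 0.10, peak at 23.2 h). The 4 LON domain relatives had 0, led by Lonrf1 (0.25 ± 0.11) and the mitochondrial protease Lonp1 (0.23 ± 0.15). Among 19 Deltex and Notch genes 1 had one, the receptor Notch3 (0.28 ± 0.10), followed by the ligand Jag1 (0.38 ± 0.17). Of 11 genes of coenzyme Q synthesis 0 had one, with Coq3 at 0.33 ± 0.12 and Coq10a, the closest relative of Coq10b, at 0.48 ± 0.19. Of 14 genes of NAD metabolism 1 had one, the deacetylase Sirt3 (0.47 ± 0.14, peak at 5.73 h), followed by Nadk2 (0.38 ± 0.17). The limma adjusted p of all 12 genes named here was 0.948 in the cosine fit.

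Among the clock lists, whose genes drive or read the loop, the counts were as follows. Of 15 core clock genes tested, 1 passed in the cosine fit with a peak in the light, Nr1d2 (adjusted p = 0.0261), and 1 with a peak in the dark, Cry1 (0.0367), and 3 passed in the joint test of times 12 h apart, these and Nr1d1 (0.0161). Of 7 other clock outputs tested 2 passed with peaks in the light, Dbp (1.683e-05) and Tef (0.0261), and the same 2 in the joint test (0.000548 and 0.0187). The median amplitudes of both lists were 0.63 and 0.48, against 0.19 over all genes. Any difference between times was called for 11 of 15 core clock genes and 5 of 7 other clock outputs, against 17% of all genes. With the replicate letters as a block, Dbp alone kept its cosine call (limma adjusted p = 0.000125), and Nr1d2 (0.0813), Cry1 (0.0813) and Tef (0.0683) missed it. In the joint test with the block, Nr1d2 (0.0695) and Cry1 (0.0878) missed the threshold. Of 18 fits with 1 array left out, the cosine call was kept in 18 for Dbp, 11 for Tef, 6 for Nr1d2 and 4 for Cry1, with adjusted p up to 0.000137, 0.0820, 0.106 and 0.161. The call in the joint test was kept in 18 for Dbp, 16 for Nr1d1, 12 for Tef, 8 for Nr1d2 and 2 for Cry1.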

How the data were processed

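The authors deposited 1 table of linear signal intensity per probe set for 18 arrays, made with GCOS per the submitters' processing notes, with no version given. The mean after trimming 2% at each end was 500 in every array, so each carries 1 scaling factor. Detection calls and background per probe set are not given, and precision is set by the number of arrays, 3 per time. Of 45037 probe sets without controls, 34945 had 1 symbol in the platform annotation, 932 several and 9160 none listed.

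Here log2(signal + 16) was taken, probe sets under the 40th percentile of the mean (7.10) were dropped, and each of 12870 genes was represented by its probe set of highest mean signal. Of the 12 member probe sets 11 were kept. A 24 h cosine and a fit of 6 group means were made with limma 3.58.1 in R 4.3.3 on all 18 arrays, with eBayes and a trend, and Benjamini-Hochberg adjustment over all genes at 0.05. The cosine error is the moderated SE. Scripts were tested on simulated data. The members and gene lists were chosen with earlier results of these data known. Named genes are all members, the 3 genes with the highest r per member, and of each list up to 4 past the threshold in the cosine or 12 h test or else the 2 with the lowest p in the cosine fit. Arntl is named outside this rule and passed neither limma test, with adjusted p = 0.0532 in the cosine fit and 0.0556 in the 12 h test. Alternatives changed the constant, normalization, filter, probe set per gene, moderation, replicate block, curve and arrays.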

Additional observations from a re-analysis of the deposited data

How the results depend on the processing

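The 6 genes' amplitudes changed by less than their log2 SD within times under all 22 refits of each gene that changed the constant, normalization or arrays. For Dtx4, Coq10b and Nampt this SD, at 0.26, 0.45 and 0.32, exceeds the amplitude of 0.18, 0.18 and 0.19. For these genes even a complete loss of amplitude would have counted as such a change, so the count says nothing of their stability. The replicate block and the 12 h harmonic cannot move a 24 h amplitude in this balanced design and are not counted. Amplitudes with 1 array left out lay between 0.54 and 0.65 for Usp2, 0.90 and 1.09 for Tspan4 and 0.51 and 0.67 for Lonrf3, between 0.12 and 0.24 for Dtx4, 0.09 and 0.27 for Coq10b and 0.07 and 0.26 for Nampt. Fitted peaks moved by more than their SE in 1 refit each for Dtx4 (to 16.9 h) and Coq10b (to 15.6 h), both with 4pm b, 4am a and 4am b left out. The cause was not tested.

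Counts over all genes were less stable. The cosine fit called 5 genes, 8 with a constant of 64, 8 with quantile normalization (Tspan4 among them, adjusted p = 0.0482), 11 with a 12 h harmonic (Tspan4 among them, 0.0472) and 1 with the replicate block. Leaving out 1 array gave between 1 and 8. It gave 1 without 8am a, 8am b, 12pm c, 4pm a, 8pm a, 8pm b or 4am b, 2 without 12pm a, 12am b or 4am c, 3 without 12pm b, 4pm b or 4am a, and 8 without 8pm c, where Tspan4 passed (0.0385). Any difference between times was called for 2183 genes, for 6942 without 4am c and for 792 to 1394 when the array left out was 4am a, 4pm a, 12pm a, 12pm b or any of the 9 from 12am, 8pm and 8am. The joint test of times 12 h apart called 10 genes, 6 with the replicate block, 2 without 4pm a, 4 without 8am a, 8pm a, 8pm b or 4am b, 5 without 12pm b or 12pm c, 6 without 12pm a or 4pm b, and 2515 without 4am c, with Usp2, Tspan4, Lonrf3 and Dtx4 among them. Without 4am c, the 4am arrays were 4am a and 4am b, with Gapdh ratios of 36.0 and 18.2, against 0.750 in 4am c. Why the counts rose there was not tested. Other settings kept these counts within 1.5 times. Arrays with the same letter did not deviate together (mean r = -0.01, from -0.49 to 0.30 over 45 pairs), so they were not taken to pair the arrays, and whether a letter marks a shared batch was not tested.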
